A study of Mus musculus with 39 samples.

Results

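The genes described here are the collagen alpha chain genes of subcutaneous mouse mesothelioma tumours, followed across retinoid and immune checkpoint treatment. They were chosen by symbol alone, as every row of the deposited gene count table named Col, a number, a and a number, which gave 44 genes of 39676. The tumours grew from AB1-HA, a single BALB/c mesothelioma line that carries an influenza haemagglutinin gene, in female and male BALB/c mice of 8 to 10 weeks, and every group, the controls included, carried this line. The mice received PBS (n = 10), the retinoid tretinoin at 5 mg/kg into the peritoneum in 5 doses from day 4 (n = 9), immune checkpoint therapy (ICT, 100 ug each of a CTLA-4 and a PD-L1 antibody on day 7, n = 10), or both (tretinoin+ICT, n = 10). A tumour was resected on day 9 and sequenced whole, and in the tretinoin+ICT group the remaining tumour of the mouse was watched, which labelled 6 mice responders and 4 non-responders. The levels therefore come from a mixture of tumour and host cells, and fewer cells of a type and less RNA per cell cannot be told apart.

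The labelled cell type was checked first. Of 7 mesothelial marker genes, 4 were found in the table, and Upk3b, Lrrn4 and Krt19 stayed below 1 CPM (read counts scaled to a common library size) in all 39 tumours. Wt1 lay between 0.253 and 5.46 CPM over the tumours and moved with treatment. Its mean was 0.604 CPM with PBS, 1.31 with tretinoin (adjusted p = 0.0157), 1.62 with ICT (adjusted p = 0.00443) and 3.15 with tretinoin+ICT (log2 fold change 2.39 ± 0.37, adjusted p = 2.71e-05). Its part in the collagen results was not tested.

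Collagens are the main structural proteins of the extracellular matrix. Their chains carry long stretches in which glycine recurs at every step of the repeat, and such chains wind around each other into a triple helix that is hydroxylated and folded in the endoplasmic reticulum. Fibrillar collagens, such as types I, III and V, are cut by proteases outside the cell and crosslinked into fibrils. Type IV collagen forms the network of basement membranes, type VI forms beaded filaments around cells, and the FACIT collagens (fibril-associated collagens with interrupted triple helices, such as types IX, XII, XIV, XVI and XX) sit on fibril surfaces. In tumours, fibroblasts and pericytes are known as leading sources of collagen, and mesothelial cells can make it too.

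The repeat that defines the family is shown for 6 genes on which the results turn, as the first 90 bases of the longest run of glycine codons with a spacing of 3 codons. They were taken from the longest coding transcript of each gene in GENCODE M21 (GRCm38), are written 5′ to 3′ on the coding strand, and have the glycine codons in capitals. The genes are Col3a1 (chr1:45311538-45349706, plus strand, codons 164 to 193), Col1a2 (chr6:4504814-4541544, plus strand, codons 97 to 126), Col6a5 (chr9:105856078-105960643, minus strand, codons 1442 to 1471), Col9a3 (chr2:180597790-180622189, plus strand, codons 177 to 206), Col20a1 (chr2:180986535-181018363, plus strand, codons 1168 to 1197) and Col4a3 (chr1:82586921-82722059, plus strand, codons 43 to 72).
Col3a1: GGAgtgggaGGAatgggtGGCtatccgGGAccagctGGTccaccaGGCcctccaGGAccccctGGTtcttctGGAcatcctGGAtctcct
Col1a2: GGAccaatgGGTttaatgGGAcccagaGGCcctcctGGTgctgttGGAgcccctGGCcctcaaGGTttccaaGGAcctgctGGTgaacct
Col6a5: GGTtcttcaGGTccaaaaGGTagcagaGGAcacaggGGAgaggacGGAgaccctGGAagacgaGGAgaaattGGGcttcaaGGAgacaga
Col9a3: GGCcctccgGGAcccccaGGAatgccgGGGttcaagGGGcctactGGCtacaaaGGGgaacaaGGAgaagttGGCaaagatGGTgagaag
Col20a1: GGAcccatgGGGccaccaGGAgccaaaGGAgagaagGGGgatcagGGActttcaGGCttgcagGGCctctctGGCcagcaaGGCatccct
Col4a3: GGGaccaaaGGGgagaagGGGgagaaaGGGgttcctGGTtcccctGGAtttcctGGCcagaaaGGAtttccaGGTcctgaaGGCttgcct

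The length of the uninterrupted repeat set the fibrillar genes apart. The 11 fibrillar genes had a longest run of 216 to 344 triplets, Col3a1 holding the longest, and only 2 or 3 runs of at least 5 triplets. The 6 basement membrane genes had runs of at most 39 to 66 triplets, broken into 22 to 27 runs. The 6 type VI genes reached 37 to 87 triplets and the 9 FACIT genes 32 to 113. Col6a5 had a longest run of 37 triplets, with 11.7% of its codons in such runs, against 73.2% for Col3a1.

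**Figure D1:**
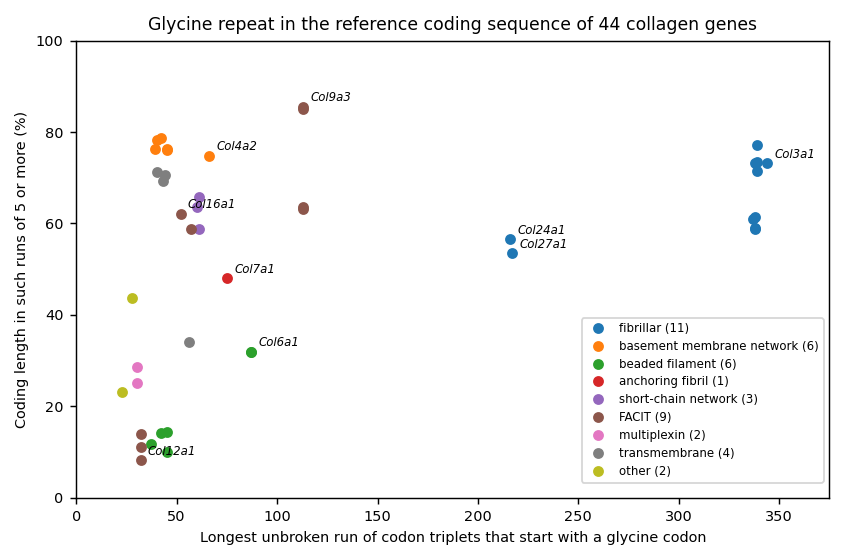
Glycine repeat in the longest coding transcript of each of the 44 collagen genes, 1 point per gene coloured by collagen type, with the longest unbroken run of codon triplets that start with a glycine codon on the x axis and the percentage of codons in runs of 5 or more triplets on the y axis. The 11 fibrillar genes sit between 216 and 344 triplets, and no gene of another type passes 113.

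The fibrillar genes also dominated the level. Levels are given as CPM per kilobase over the union of a gene's annotated exons, which can be longer than the transcript that is made. That union was 12426 bases for Col1a2 and 8326 for Col6a2, beside 6563 for Col1a1 and 4380 for Col6a1. The order of genes and the shares of types below depend on it. On this scale Col3a1, the only chain of type III collagen, had a median of 1473 in PBS tumours (lowest 1009, highest 1616). Col6a1 followed with a median of 495 (388 to 720), Col1a2 with 415 (340 to 532) and Col1a1 with 338 (243 to 497). The lowest PBS value of Col3a1 was above the highest of any other collagen gene, whereas the ranges of Col6a1, Col1a2 and Col1a1 overlapped. Of the summed collagen level per kilobase, the fibrillar genes made up a median of 67.5% over all 39 tumours (62.2 to 71.2%), and Col3a1 alone made up 35.9%. The type VI genes held 20.5% (17.3 to 26.7%), the type IV genes 6.47% (5.41 to 8.45%), and the FACIT genes 1.96% (1.54 to 2.50%).

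**Figure D2:**
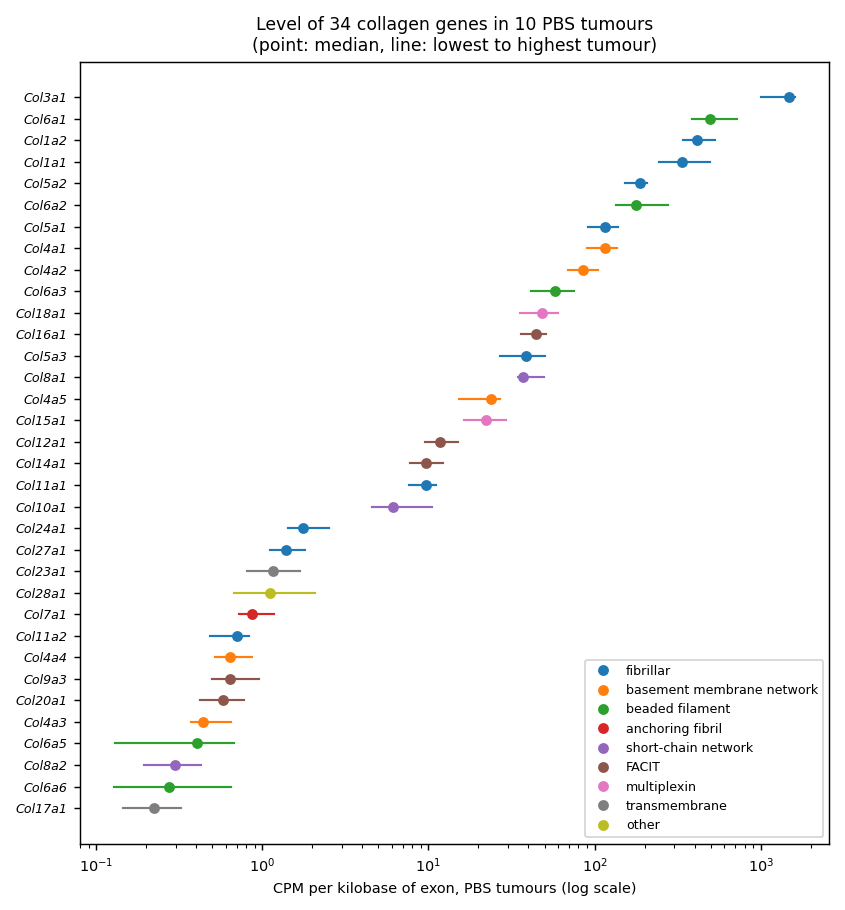
Level of the 34 tested collagen genes in PBS tumours, in CPM per kilobase of exon on a log axis, with the median of the 10 tumours as the point, the lowest and highest tumour as the line, and the collagen type as the colour. Col3a1 is highest at a median of 1473, followed by Col6a1 at 495 and Col1a2 at 415.

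The low-count filter removed 10 of the 44 genes from each pairwise comparison, and these stayed at a PBS median of 0.355 CPM or less. They were Col2a1, Col9a1 and Col9a2, known from cartilage, with Col4a6, Col6a4, Col13a1, Col19a1, Col22a1, Col25a1 and Col26a1. Col9a1 had no read in any PBS tumour. Of the 5 cartilage markers found, Acan, Matn1 and Matn3 were below 1 CPM in every tumour. Comp lay between 0.447 and 1.85 CPM and Sox9 between 1.81 and 9.95 CPM. Comp rose against PBS with tretinoin (log2 fold change 0.65, adjusted p = 0.0162) and ICT (0.60, adjusted p = 0.0214) by edgeR's test. It also rose with tretinoin+ICT (0.58, adjusted p = 0.00958). Sox9 rose with tretinoin+ICT against PBS (0.46, adjusted p = 0.0318) but with neither treatment alone. The remaining 34 collagen genes were tested. Passing the filter needed enough reads in a minimum number of tumours, so the 34 are not all members of the family.

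Where the genes lie bears on how their reads were counted. Of the 44 genes, 32 share no exon base with an annotated gene outside the family and 12 do. Overlap between collagen genes is not in this count. Col4a1 (up to base 11312826) and Col4a2 (from base 11312805) overlap at their ends on chromosome 8. Col10a1, of the growth plate, overlaps Nt5dc1 on the other strand, Col9a3 overlaps Tcfl5 on the other strand, Col4a3 overlaps C430014B12Rik on the other strand, and Col20a1 overlaps BX649560.1 on its own strand. Whether the counting used strand is not given in the sources used here, so reads in such overlaps cannot be assigned with certainty. Tcfl5 had 0 to 7 reads per tumour beside 38 to 133 for Col9a3, and C430014B12Rik had 0 to 10 beside 22 to 143 for Col4a3. Nt5dc1 had 289 to 645 reads beside 31 to 635 for Col10a1.

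The libraries held 14033046 to 37951183 counted reads, and the collagen genes took 1.65 to 4.07% of them. The collagen share was 3.27% ± 0.467 (SD, n = 10) with PBS, 3.17% ± 0.695 (n = 9) with tretinoin, 2.54% ± 0.6246 (n = 10) with ICT and 2.44% ± 0.469 (n = 10) with tretinoin+ICT, and the ranges of the groups overlapped. Markers of other cells moved with treatment. The summed level of 4 leukocyte markers ranged from 688 to 1220 CPM with PBS (median 766), 722 to 1496 with tretinoin (903), 727 to 2151 with ICT (1126) and 968 to 2031 with tretinoin+ICT (1405). The summed level of 5 macrophage markers had medians of 2036, 2455, 3024 and 3537 CPM in the same order. The summed level of the 6 fibroblast markers found had medians of 551, 583, 529 and 525 CPM. Within this sum, Thy1 had means of 65.7, 74.8, 82.8 and 101 CPM. Each other fibroblast marker had a lower mean with ICT and with tretinoin+ICT than with PBS. The summed level of 8 pericyte and smooth muscle markers had medians of 334, 361, 283 and 266 CPM. Their part in the collagen results was not tested.

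With tretinoin alone the abundant fibrillar chains did not pass, and the genes that rose were minor collagens. A gene passed where its adjusted p from edgeR's quasi-likelihood test was below 0.05. Of 34 collagen genes tested, 7 rose, beside 11.5% of all 14340 genes tested, and 1 fell, beside 8.95%. An unadjusted p below 0.05 was rarer among the 34 than among all genes (23.5% beside 35.3%). In a fit over all 39 tumours, Col9a3, Col11a2 and Col20a1 still rose, and the calls of Col6a5, Col8a2, Col17a1 and Col24a1 were lost. The collagen median log2 fold change was 0.08, beside 0.01 over all genes. Among the fibrillar genes, Col1a1 had a log2 fold change of 0.07 ± 0.14 (SE), Col1a2 of 0.02 ± 0.11 and Col3a1 of -0.16 ± 0.12, and none of the 3 passed. On the same scale, the fibrillar genes Col5a1 at 0.03, Col5a2 at -0.03 and Col11a1 at 0.09 did not pass. Nor did the basement membrane genes Col4a1 at 0.12 and Col4a2 at 0.14, the type VI genes Col6a1 at 0.12, Col6a2 at 0.16 and Col6a3 at -0.05, the FACIT genes Col12a1 at -0.09 and Col14a1 at 0.19 and the multiplexins Col15a1 at 0.10 and Col18a1 at -0.17.

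Col11a2, a chain of the fibrillar type XI collagen, was the only one of the 34 whose groups did not overlap. Its level was 3.35, 4.85 and 5.70 CPM (lowest, median, highest) with PBS and 5.92, 6.49 and 9.16 CPM with tretinoin. All 9 tretinoin tumours lay above all 10 PBS tumours, which held for 1.48% of all genes tested. Its log2 fold change was 0.61 ± 0.11 (adjusted p = 0.000441). Col24a1, a fibrillar chain of developing bone and cornea, rose by 0.46 ± 0.12 on the log2 scale (adjusted p = 0.0122), from a median of 13.4 to 16.6 CPM, and missed the threshold in a fit over all 39 tumours (adjusted p = 0.0515).

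The 2 FACIT genes that rose were Col9a3 and Col20a1. Col9a3, a chain of the type IX collagen of cartilage, was at 1.93, 2.47 and 3.70 CPM with PBS and at 2.72, 4.31 and 6.34 CPM with tretinoin. The groups overlapped, with 6 of 9 tretinoin tumours above every PBS tumour, and the log2 fold change was 0.70 ± 0.15 (adjusted p = 0.00320). Col20a1 went from 2.18, 2.99 and 4.00 CPM to 3.26, 4.49 and 8.37 CPM, with 8 of 9 tretinoin tumours above every PBS tumour. Its log2 fold change was 0.65 ± 0.14 (adjusted p = 0.00366). With counts summed over tumours whose names share the first digit (a name series, 2 per treatment) as the units, Col20a1 did not pass (0.60, adjusted p = 0.0826).

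Col8a2, a short chain of the network under corneal endothelium, had a median of 1.33 CPM with PBS and 1.96 CPM with tretinoin, a log2 fold change of 0.56 ± 0.15 (adjusted p = 0.0129). Col17a1, the transmembrane collagen of hemidesmosomes, was at medians of 1.35 and 1.71 CPM (0.62 ± 0.22, adjusted p = 0.0476). Both levels rest on few reads per tumour, and both calls were lost in the fit over all 39 tumours, for Col8a2 at an adjusted p = 0.101 and for Col17a1 at 0.0555. The gene that fell was Col4a3, a basement membrane chain of kidney and lung, from 3.69, 4.39 and 6.49 CPM to 2.08, 3.06 and 5.28 CPM. Of the 9 tretinoin tumours, 8 lay below every PBS tumour, with a log2 fold change of -0.59 ± 0.15 (adjusted p = 0.00905).

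Col6a5, a type VI chain, varied between tretinoin tumours. It had the largest log2 fold change of the 34, 1.64 ± 0.56 (adjusted p = 0.0454), yet its median was 3.79 CPM with PBS (1.22 to 6.32) and 3.76 CPM with tretinoin (2.79 to 37.9). The value came from 3 of the 9 tretinoin tumours, tumours 33, 34 and 35, at 37.9, 22.7 and 21.9 CPM, while the other 6 tumours lay between 2.79 and 4.88 CPM. Without the least correlated tumour of each group (tumours 33 and 12) the log2 fold change was 1.05 (adjusted p = 0.185), so the call was lost, as it was in the fit over all 39 tumours (1.64, adjusted p = 0.0665). Of the 34 genes, 8 (23.5%) had an unadjusted p below 0.05, beside 35.3% of all genes. None of the 34 had all tretinoin tumours below all PBS tumours, beside 0.523% of all genes.

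ICT alone lowered fibrillar, basement membrane, type VI and type VIII collagen genes. Of 34 genes, 8 fell, beside 7.15% of all 14155 genes tested, and 3 rose, beside 14.1%. The collagen median log2 fold change was -0.31, beside -0.02 over all genes, and 26 of the 34 values were below 0, beside 53.6% of all genes. An unadjusted p below 0.05 was found for 21 of the 34 (61.8%), beside 36.4% of all genes. Those that fell were 3 of 10 fibrillar genes tested (Col1a2, Col5a1 and Col11a1), 3 of 5 basement membrane genes (Col4a3, Col4a4 and Col4a5), Col6a3 of type VI and Col8a1 of type VIII.

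Col8a1, a short-chain collagen of vessel walls, was the only one of the 34 whose groups did not overlap. It was at 273, 292 and 389 CPM with PBS and at 149, 233 and 271 CPM with ICT. All 10 ICT tumours lay below all 10 PBS tumours, which held for 0.0495% of all genes tested, and the log2 fold change was -0.45 ± 0.09 (adjusted p = 0.00405). With the name series as the units Col8a1 did not pass (-0.45, adjusted p = 0.102). Col11a1, the alpha 1 chain of type XI collagen, known as a marker of activated stroma, was at 96.8, 122 and 141 CPM with PBS and at 35.1, 85.5 and 114 CPM with ICT. Of the 10 ICT tumours, 9 lay below every PBS tumour, with a log2 fold change of -0.60 ± 0.15 (adjusted p = 0.00915). This call was lost in the fit over all 39 tumours (-0.59, adjusted p = 0.0664) and with the name series as the units (-0.60, adjusted p = 0.172).

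Among the abundant fibrillar chains, Col1a2 of type I collagen fell from 4219, 5151 and 6610 CPM to 2906, 4012 and 5850 CPM. Its log2 fold change was -0.41 ± 0.11 (adjusted p = 0.0116), with 7 of 10 ICT tumours below every PBS tumour. The partner chain Col1a1 had a log2 fold change of -0.34 ± 0.15 and did not pass (adjusted p = 0.115), nor did Col3a1 at -0.35 ± 0.13 (adjusted p = 0.0569). DESeq2 called Col3a1 lower at the same size (-0.35, adjusted p = 0.0406), and also Col15a1 (-0.35, adjusted p = 0.0330) and Col7a1 (-0.32, adjusted p = 0.0484). A p that misses the threshold does not show that a level stayed the same. Col5a1, the type V chain that starts fibrils, fell by 0.38 on the log2 scale (adjusted p = 0.0232), and Col6a3, the longest chain of the common type VI heterotrimer, fell by 0.44 (adjusted p = 0.0173). The other abundant chains did not pass with edgeR, with log2 fold changes for Col5a2 at -0.23, Col6a1 at -0.36, Col6a2 at -0.38, Col12a1 at 0.0025, Col14a1 at -0.16, Col15a1 at -0.35 and Col18a1 at -0.30.

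The 3 chains of the kidney-type basement membrane network fell together. Col4a3 went from 3.69, 4.39 and 6.49 CPM to 1.96, 2.87 and 4.35 CPM (log2 fold change -0.68 ± 0.13, adjusted p = 0.00253). Col4a4 had a log2 fold change of -0.49 ± 0.15 (adjusted p = 0.0220) and Col4a5 of -0.47 ± 0.17 (adjusted p = 0.0462). The chains of the common network, Col4a1 at -0.20 ± 0.09 and Col4a2 at -0.15 ± 0.08, did not pass. Whether the 3 chains differ from Col4a1 and Col4a2 was not tested.

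The 3 genes that rose with ICT were Col6a5, Col9a3 and Col20a1. Col6a5 was at 2.13, 12.4 and 39.5 CPM with ICT beside 1.22, 3.79 and 6.32 CPM with PBS. The groups overlapped, with 7 of 10 ICT tumours above every PBS tumour, and the log2 fold change was 1.93 ± 0.48 (adjusted p = 0.00959, and 0.297 with the name series as the units). Col9a3 had a log2 fold change of 0.55 ± 0.16 (adjusted p = 0.0239) and Col20a1 of 0.49 ± 0.17 (adjusted p = 0.0461). Without the least correlated tumours (63 with ICT and 12 with PBS), Col9a3 (0.43, adjusted p = 0.0791), Col20a1 (0.40, adjusted p = 0.133), Col4a4 (-0.44, adjusted p = 0.0550), Col4a5 (-0.39, adjusted p = 0.106) and Col5a1 (-0.30, adjusted p = 0.0653) no longer passed. None of the 34 had all ICT tumours above all PBS tumours, beside 0.403% of all genes.

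Tretinoin+ICT against PBS gave the most collagen calls of the comparisons, and also the most calls over all genes. Of 34 genes, 16 fell, beside 24.5% of all 14265 genes tested, and 6 rose, beside 25.7%. The median log2 fold change was -0.30, beside -0.01 over all genes, and 23 of the 34 (67.6%) had an unadjusted p below 0.05, beside 56% of all genes. The groups overlapped in all 34, while 3.84% of all genes lay wholly higher and 1.75% wholly lower. With a log2 fold change of at least 1 also required, Col6a5 was the 1 gene that rose in each comparison with PBS, beside 1.49% of all genes with tretinoin, 2.28% with ICT and 5.45% with tretinoin+ICT, and 0 genes fell, beside 0.132%, 0.0636% and 0.47%. The genes that fell were 6 of 10 fibrillar genes (Col1a2, Col3a1, Col5a1, Col5a2, Col11a1 and Col27a1), Col4a3, Col4a4 and Col4a5, Col6a3, Col8a1, Col18a1 of the vascular basement membrane, the transmembrane Col23a1, Col7a1 of anchoring fibrils, and the FACIT genes Col12a1 and Col16a1.

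**Figure D3:**
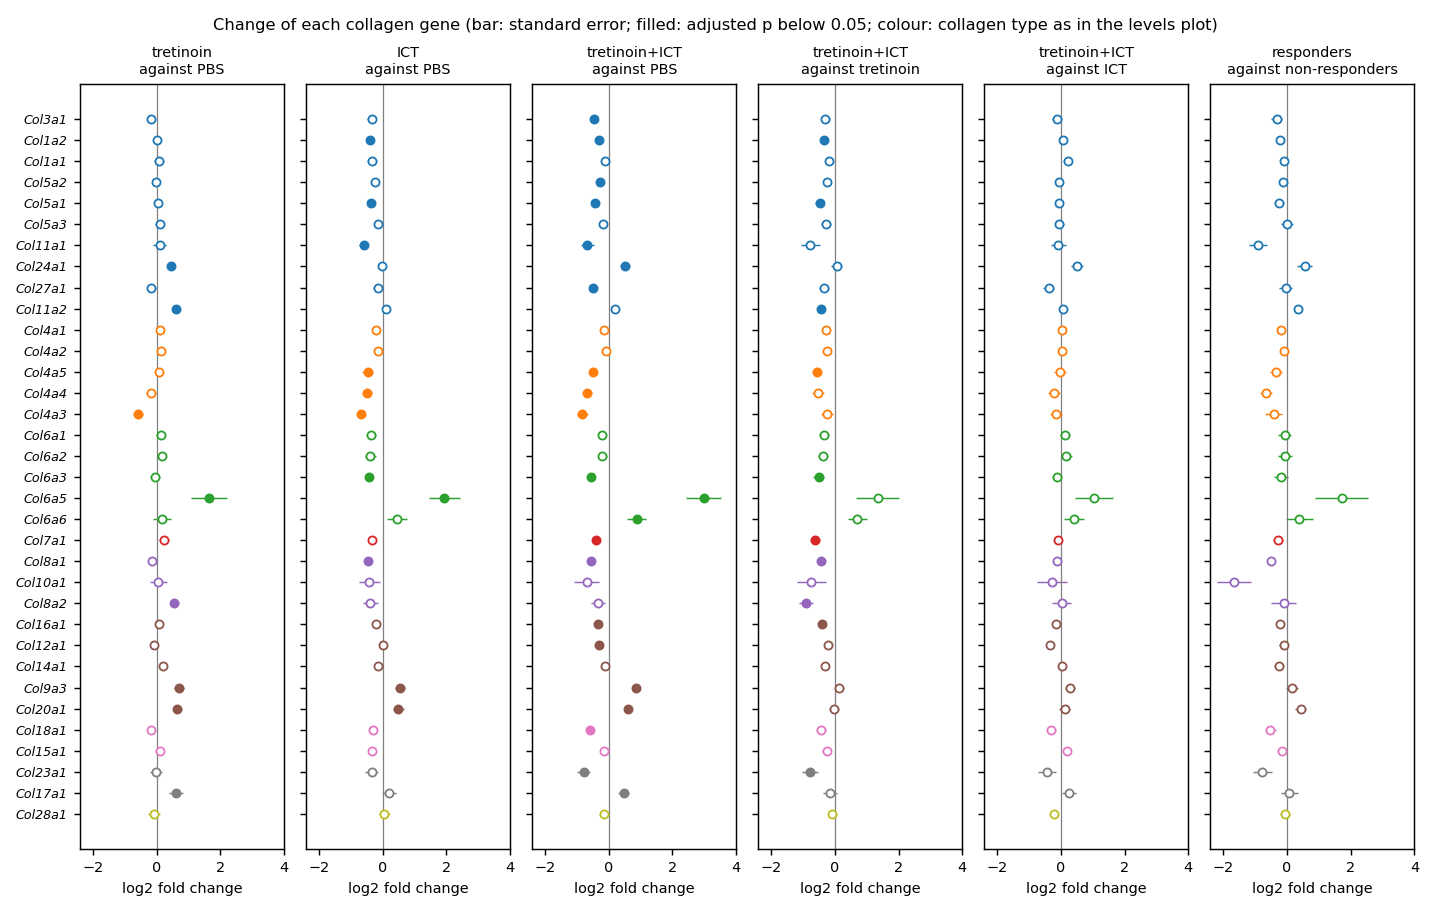
Log2 fold change of the 34 tested collagen genes in 6 comparisons, with the standard error as the bar, the collagen type as the colour, and filled points for genes with an adjusted p below 0.05. Against PBS, 7 genes rose and 1 fell with tretinoin, 3 rose and 8 fell with ICT, and 6 rose and 16 fell with tretinoin+ICT. The comparisons with PBS share the PBS tumours.

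Col3a1 was at 9909, 14456 and 15867 CPM with PBS and at 6922, 9464 and 15104 CPM with tretinoin+ICT. The groups overlapped, with 6 of 10 treated tumours below every PBS tumour, and the log2 fold change was -0.46 ± 0.11 (adjusted p = 0.00193). Col18a1, the source of endostatin, went from 248, 340 and 423 CPM to 145, 235 and 308 CPM (-0.59 ± 0.13, adjusted p = 0.00105). Col8a1 was at 138, 211 and 297 CPM beside 273, 292 and 389 CPM, with 9 of 10 treated tumours below every PBS tumour (-0.56 ± 0.11, adjusted p = 0.000373).

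The largest falls by log2 fold change among the genes that passed were in low-level chains. Col4a3 was at 1.23, 2.66 and 4.07 CPM, with 8 of 10 treated tumours below every PBS tumour and a log2 fold change of -0.83 ± 0.17 (adjusted p = 0.000380). Col23a1 had medians of 6.66 CPM with PBS and 3.80 CPM with tretinoin+ICT (-0.78 ± 0.21, adjusted p = 0.00371). Col4a4 had medians of 6.81 and 4.27 CPM (-0.69 ± 0.15, adjusted p = 0.000780). In Col4a3 every treated tumour was below the PBS median, and in Col23a1 and Col4a4 9 of 10 were. The log2 fold changes of the remaining genes that fell were, in fibrillar genes, Col1a2 at -0.32, Col5a1 at -0.44, Col5a2 at -0.28, Col11a1 at -0.67 and Col27a1 at -0.50. In the other types they were Col4a5 at -0.49, Col6a3 at -0.56, Col7a1 at -0.38, Col12a1 at -0.31 and Col16a1 at -0.34. Major chains that did not pass were Col1a1 at -0.12, Col4a1 at -0.16, Col4a2 at -0.09, Col6a1 at -0.22, Col6a2 at -0.20, Col14a1 at -0.10 and Col15a1 at -0.15.

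Col6a5 rose the most of any collagen gene. It was at 2.41, 33.02 and 87.6 CPM with tretinoin+ICT beside 1.22, 3.79 and 6.32 CPM with PBS, a log2 fold change of 2.98 ± 0.55 (adjusted p = 0.000231, and 0.0741 with the name series as the units). Of the 10 treated tumours, 8 lay above every PBS tumour and the other 2, at 2.41 and 3.41 CPM, lay inside the PBS range. Col6a6, the neighbouring gene on chromosome 9 and another type VI chain, rose by 0.88 ± 0.31 on the log2 scale (adjusted p = 0.0217), from a median of 2.52 to 5.05 CPM. The call of Col6a6 was lost without the least correlated tumours (41 and 12), at 0.78 (adjusted p = 0.0600), and with the name series as the units, at 0.94 (adjusted p = 0.104).

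Col9a3 went from 1.93, 2.47 and 3.70 CPM to 3.62, 4.74 and 5.81 CPM (0.85 ± 0.13, adjusted p = 2.39e-05). Only 2 of the 10 treated tumours lay inside the PBS range. Col20a1 went from 2.18, 2.99 and 4.00 CPM to 3.08, 4.64 and 6.67 CPM (0.61 ± 0.13, adjusted p = 0.000529). Col24a1 and Col17a1 had log2 fold changes of 0.52 ± 0.16 (adjusted p = 0.0108) and 0.47 ± 0.18 (adjusted p = 0.0299), and Col17a1 missed the threshold in the fit over all 39 tumours (adjusted p = 0.0755). Col11a2, which separated tretinoin from PBS, was at 4.20, 5.41 and 6.90 CPM and did not pass (0.19 ± 0.10, adjusted p = 0.120).

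**Figure D4:**
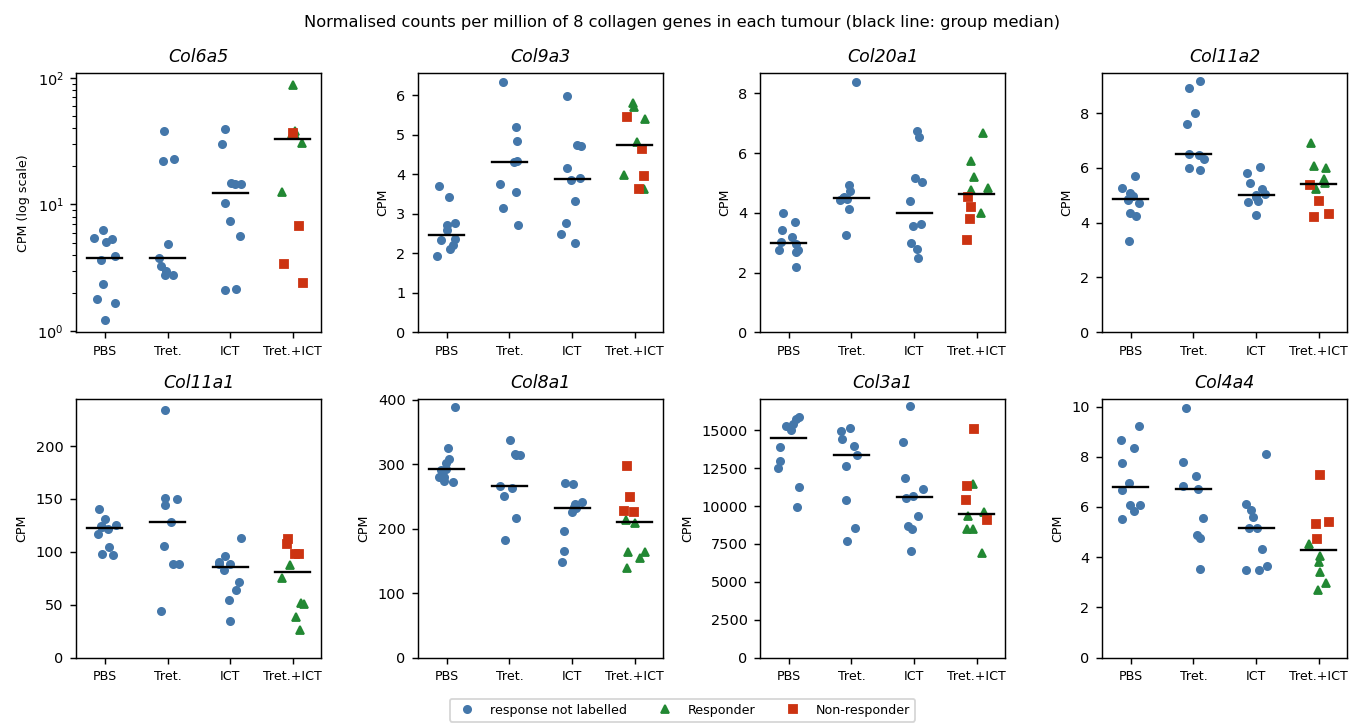
Level in each tumour of 8 collagen genes in the 4 treatment groups, in CPM (log axis for Col6a5, linear from 0 for the others), with the group median as a black line and responders (triangles) and non-responders (squares) of the tretinoin+ICT group marked apart. Col6a5 spans 2.41 to 87.6 CPM with tretinoin+ICT, where the lowest 3 tumours are non-responders, and Col11a2 is highest with tretinoin.

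Adding ICT to tretinoin lowered collagen genes, and adding tretinoin to ICT gave no passing change in the test of those groups alone. Against tretinoin alone, tretinoin+ICT had 10 of 34 genes lower, beside 9.01% of 14393 genes, and 0 higher, beside 12.3%. Col8a2 had the largest fall, from 1.23, 1.96 and 2.58 CPM to 0.349, 1.05 and 1.74 CPM (-0.90 ± 0.22, adjusted p = 0.00988). Col11a2 fell by 0.42 on the log2 scale (adjusted p = 0.0150), with 7 of 10 tumours below every tretinoin tumour. The others were Col1a2, Col4a5, Col5a1, Col6a3, Col7a1, Col8a1, Col16a1 and Col23a1, with log2 fold changes for Col1a2 at -0.34, Col4a5 at -0.56, Col5a1 at -0.47, Col6a3 at -0.50, Col7a1 at -0.62, Col8a1 at -0.42, Col16a1 at -0.40 and Col23a1 at -0.77. Major chains that did not pass were Col1a1 at -0.19, Col3a1 at -0.30, Col5a2 at -0.25, Col11a1 at -0.76, Col4a1 at -0.28, Col4a2 at -0.23, Col6a1 at -0.34, Col6a2 at -0.36, Col12a1 at -0.22, Col14a1 at -0.29, Col15a1 at -0.25 and Col18a1 at -0.43. DESeq2 also called Col11a1 (-0.76, adjusted p = 0.0288), Col18a1 (-0.43, adjusted p = 0.0422) and Col4a4 (-0.52, adjusted p = 0.0345) lower. The edgeR fit over all 39 tumours called these 3 lower too (adjusted p = 0.0154, 0.0308 and 0.0223). It also called Col4a1 (-0.28, adjusted p = 0.0350) and Col5a2 (-0.26, adjusted p = 0.0440) lower. None of the 10 reached a log2 fold change of -1, which 0.215% of all genes did while passing. An unadjusted p below 0.05 was found for 22 of the 34 (64.7%), beside 37.8% of all genes. The groups overlapped in all 34, while 0.306% of all genes lay wholly higher and 0.396% wholly lower. All 10 had at least 8 of 10 tretinoin+ICT tumours below the tretinoin median.

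Against ICT alone, edgeR called 0 of 34 genes in either direction, beside 1.57% of 14202 genes higher and 0.422% lower, and DESeq2 also called 0. At an unadjusted p below 0.05 there were 3 genes, beside 18.1% of all genes. The groups overlapped in all 34, while 0.275% of all genes lay wholly higher and 0.0211% wholly lower. The 3 genes were Col24a1 at 0.52 ± 0.18 (adjusted p = 0.156), Col12a1 at -0.32 ± 0.12 (adjusted p = 0.161) and Col27a1 at -0.37 ± 0.17 (adjusted p = 0.255). Of these, Col24a1 passed in the fit over all 39 tumours (0.52, adjusted p = 0.0481) and with the name series as the units (0.58, adjusted p = 0.0252). Col6a5 had medians of 12.4 CPM with ICT and 33.02 CPM with tretinoin+ICT, and the difference of 1.05 ± 0.59 on the log2 scale did not pass (adjusted p = 0.337). The other major chains lay between -0.30 and 0.22 on the log2 scale, with fibrillar Col1a1 at 0.22, Col1a2 at 0.08, Col3a1 at -0.12, Col5a1 at -0.07, Col5a2 at -0.06 and Col11a1 at -0.08. The type IV, VI and other chains were Col4a1 at 0.04, Col4a2 at 0.05, Col6a1 at 0.14, Col6a2 at 0.18, Col6a3 at -0.12, Col14a1 at 0.05, Col15a1 at 0.19 and Col18a1 at -0.30.

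The interaction of the treatments, which asks whether their joint effect differs from the sum of the log2 effects, was fitted over all 39 tumours. It called 0 of 35 collagen genes with edgeR, beside 0.307% of 14977 genes, and 2 at an unadjusted p below 0.05, beside 9.45%. Col11a2 was nearest, with a difference of -0.54 ± 0.14 (adjusted p = 0.0800), and DESeq2 called it (-0.53, adjusted p = 0.0392). No share of all genes is given here for DESeq2. Col20a1 had -0.53 ± 0.23 (adjusted p = 0.446). For Col6a5 the interaction was -0.60 ± 0.83 (adjusted p = 0.862).

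Within the tretinoin+ICT group, edgeR called 0 of 34 collagen genes between 6 responders and 4 non-responders, and 0% of all 14604 genes in either direction. An unadjusted p below 0.05 was found for 10 collagen genes, 29.4% of those tested, beside 22.6% of all genes. DESeq2 called 5 collagen genes, all with lower values in responders, and 1367 genes in all. The 1367 were not split by direction, so the 5 cannot be set beside a share of all genes. The collagen median log2 difference was -0.15, beside 0.01 over all genes, and 26 of 34 values were below 0.

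In 3 genes every responder tumour lay below every non-responder tumour, a pattern held by 3.55% of all genes tested. In 0 genes every responder lay above every non-responder, beside 2.02% of all genes. Col11a1 was at 112, 107, 97.8 and 97.7 CPM in the 4 non-responders and at 26.2, 51.2 and 87.5 CPM (lowest, median, highest) in responders, a log2 difference of -0.90 ± 0.28 (adjusted p = 0.109). Col8a1 was at 297, 249, 228 and 227 CPM in non-responders and at 138, 164 and 214 CPM in responders (-0.51 ± 0.13, adjusted p = 0.0871). Col4a4 was at 7.28, 4.73, 5.40 and 5.33 CPM in non-responders and at 2.70, 3.60 and 4.51 CPM in responders (-0.65 ± 0.18, adjusted p = 0.0916).

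Col10a1, the collagen of hypertrophic cartilage, named after its values were seen, had the log2 difference furthest below 0, -1.66 ± 0.53 (adjusted p = 0.114). It was at 33.2, 21.3, 23.7 and 11.3 CPM in non-responders and at 1.78, 5.80 and 17.6 CPM in responders. The groups overlapped through tumour 44, a non-responder at 11.3 CPM, and tumour 43, a responder at 17.6 CPM. Each tumour of this comparison was left out in turn, and only the fit without tumour 43 gave calls. There edgeR called 6 collagen genes (Col4a4, Col8a1, Col10a1, Col11a1, Col18a1 and Col23a1), all with lower values in responders, and Col10a1 was at -2.19 (adjusted p = 0.0135). These calls rest on leaving out that 1 responder. In that fit 5.74% of all 14540 genes tested were called lower and 6.68% higher. The log2 differences of the abundant fibrillar chains were nearer 0, with Col1a1 at -0.09, Col1a2 at -0.23, Col3a1 at -0.32, Col5a1 at -0.24 and Col5a2 at -0.13. The other major chains were Col4a1 at -0.19, Col4a2 at -0.10, Col6a1 at -0.06, Col6a2 at -0.06, Col6a3 at -0.19, Col12a1 at -0.09, Col14a1 at -0.25, Col15a1 at -0.17 and Col18a1 at -0.52. Over the 6 pairwise comparisons, Col5a3, Col10a1 and Col28a1 were the tested collagen genes outside the major chains that passed in none with edgeR over all tumours of the groups compared.

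Col6a5 had values in the opposite direction. Of the non-responders, 3 of 4 were at 2.41, 3.41 and 6.80 CPM and tumour 44 was at 36.5 CPM, beside 12.6, 35.5 and 87.6 CPM in responders. The groups overlapped, and the log2 difference of 1.73 ± 0.83 did not pass (adjusted p = 0.255). The summed macrophage markers lay between 3466 and 4000 CPM in responders and between 2755 and 3274 CPM in non-responders, which did not overlap. Summed leukocyte markers were at 1175 to 2031 and 968 to 1566 CPM. Their part in the collagen differences was not tested.

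The first digit of a tumour's name splits each treatment into 2 series of 4 or 5 tumours, and each series holds 1 treatment, so no series has tumours on both sides of a comparison between treatments. To set treatments against the spread between series, the counts were summed over each series and the 8 sums were fitted with edgeR (4 residual degrees of freedom), an alternative chosen after seeing the data. With tretinoin 3 of 40 collagen genes rose, beside 4.98% of 18739 genes, and 1 fell, beside 3.07%. With ICT 1 rose, beside 7.41%, and 10 fell, beside 2.13%. With tretinoin+ICT 3 rose, beside 17.3%, and 15 fell, beside 14.2%, and against tretinoin alone 12 fell, beside 5.35%.

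The genes called were partly others than by tumour. Of the 11 genes that passed with ICT by tumour, 5 also passed by series, and Col8a1, Col11a1, Col6a3 (-0.46, adjusted p = 0.111), Col4a4 (-0.51, adjusted p = 0.0879), Col6a5 and Col20a1 (0.47, adjusted p = 0.149) did not. Genes that fell with ICT by series but not by tumour were Col3a1 (-0.36, adjusted p = 0.0306), Col6a1 (-0.38, adjusted p = 0.0333), Col6a2 (-0.40, adjusted p = 0.0313), Col15a1, Col16a1 and Col18a1. Of the 22 genes that passed with tretinoin+ICT against PBS by tumour, 16 also passed by series, and Col11a1 (-0.67, adjusted p = 0.0707), Col12a1 (-0.32, adjusted p = 0.117), Col7a1 (-0.40, adjusted p = 0.0590), Col17a1 (0.45, adjusted p = 0.0539), Col6a5 and Col6a6 did not, while Col13a1 (-1.40, adjusted p = 0.00560) and Col15a1 (-0.15, adjusted p = 0.0422) fell by series only. Of the 8 genes that passed with tretinoin, 4 also passed by series (Col4a3, Col9a3, Col11a2 and Col24a1), and of the 10 against tretinoin 8 did, with Col6a3 and Col8a1 lost and Col4a1, Col14a1, Col15a1 and Col18a1 gained. Col6a5 varied between series with tretinoin, at -0.53 to 2.39 on the log2 scale over the pairs of a tretinoin and a PBS series, and its 3 high tretinoin tumours all had names starting with 3.

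Chains of a collagen type were compared from tumour to tumour, and the closest pairs are given first. With each tumour's log2 CPM taken relative to its group mean (39 tumours), 13 pairs of chains of a collagen type were tested with 100000 permutations within treatment groups, adjusted over the 13 pairs by Benjamini-Hochberg, the smallest raw p they can give being 1e-05. Not every such pair was tested. Pairs of Col4a1 or Col4a2 with Col4a3, Col4a4 or Col4a5 were left out. So were pairs of Col6a5 or Col6a6 with Col6a1, Col6a2 or Col6a3, and Col5a2 with Col5a3. Col6a1 and Col6a2, neighbours on chromosome 10 that build type VI collagen with Col6a3, had r = 0.99 and rho = 0.99 (raw permutation p = 1e-05, adjusted p = 1.62e-05 for both). Leaving out the 2 tumours furthest from the median left r = 0.99. Col4a1 and Col4a2, which lie head to head on chromosome 8, had r = 0.96 and rho = 0.95 (r = 0.95 without 2 tumours), with the same permutation p values. Col5a1 and Col5a2 had r = 0.93 and rho = 0.91 (0.91 without 2), and Col1a1 and Col1a2 had r = 0.88 and rho = 0.86 (0.84 without 2), again with the same permutation p values. These p values also held for Col5a1 and Col5a3 (r = 0.87, rho = 0.88, 0.88 without 2), Col6a1 and Col6a3 (r = 0.77, rho = 0.78, 0.74 without 2) and Col6a2 and Col6a3 (r = 0.79, rho = 0.79, 0.76 without 2).

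Other pairs were less close, and the pairs of types VIII and XI had values of r below 0 that did not pass. Col4a3 and Col4a4, head to head on chromosome 1, had r = 0.64 and rho = 0.56 (0.57 without 2; permutation p = 8e-05 and 0.00066, adjusted p = 0.000104 and 0.000858). Col4a3 and Col4a5 had r = 0.41 and rho = 0.35 (0.29 without 2; permutation p = 0.0123 and 0.0374, adjusted p = 0.0145 and 0.0443), and Col4a4 and Col4a5 had r = 0.68 and rho = 0.58 (0.60 without 2; permutation p = 1e-05 and 0.00047, adjusted p = 1.62e-05 and 0.000679). Col6a5 and Col6a6 had r = 0.65 and rho = 0.67 (0.69 without 2; permutation p = 2e-05 and 1e-05, adjusted p = 2.89e-05 and 1.62e-05). Col11a1 and Col11a2, chains of the same type XI molecule, had r = -0.09 and rho = -0.17 (-0.25 without 2; permutation p = 0.614 and 0.335, adjusted p = 0.614 and 0.363). Col8a1 and Col8a2 had r = -0.20 and rho = -0.09 (-0.07 without 2; permutation p = 0.288 and 0.587, adjusted p = 0.312 and 0.587).

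Chosen after the values were seen, and given as a description over the same 39 tumours and libraries, Col10a1 and Col11a1 had r = 0.84 (rho = 0.82), while Col6a5 had r = -0.64 with Col10a1 and -0.65 with Col11a1. With the summed leukocyte markers, Col3a1 had r = -0.83, Col11a1 -0.79 and Col6a5 0.37. With the summed fibroblast markers, Col3a1 had r = 0.57, Col6a5 0.49 and Col11a1 0.08. The fibroblast sum includes Thy1, whose mean was higher with ICT than with PBS while the means of its other markers were lower. A higher share of one cell type lowers the CPM of genes of all others, and this was not separated here. Over tumours, the pooled SD of log2 CPM within groups was smallest for Col11a2 (0.20), Col4a2 (0.21) and Col5a2 (0.22) and largest for Col6a5 (1.39) and Col10a1 (1.01).

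**Figure D5:**
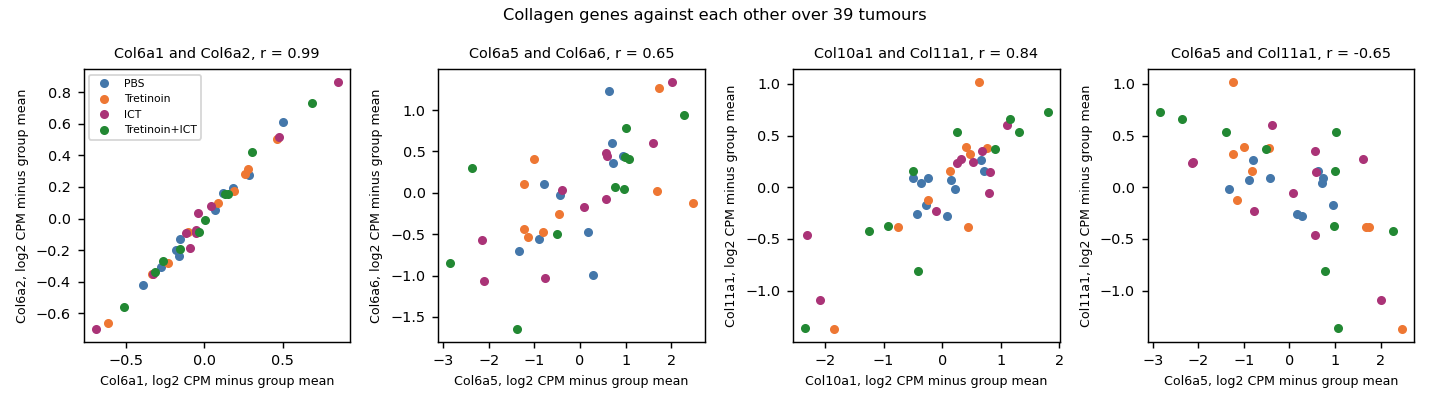
Log2 CPM minus the group mean for 4 pairs of collagen genes, 1 point per tumour (n = 39), coloured by treatment. Col6a1 and Col6a2 lie close to a line (r = 0.99), Col6a5 and Col6a6 (r = 0.65) and Col10a1 and Col11a1 (r = 0.84) scatter more, and Col6a5 and Col11a1 run in opposite directions (r = -0.65).

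The enzymes that process collagen moved in both directions. Of 17 genes for folding and hydroxylation, tretinoin+ICT against PBS raised 7 and lowered 7, beside 25.7% of all genes higher and 24.5% lower. Plod3, a lysyl hydroxylase, rose from a mean of 161 to 198 CPM (log2 fold change 0.30 ± 0.04, adjusted p = 9.84e-06), its relative Plod1 from 143 to 187 CPM (0.39 ± 0.06, adjusted p = 3.67e-05) and P4ha1, a prolyl hydroxylase subunit, from 149 to 225 CPM (0.60 ± 0.09, adjusted p = 1.75e-05). Serpinh1, the collagen chaperone HSP47 and named after its values were seen, fell from 922 to 735 CPM (-0.33 ± 0.07, adjusted p = 0.000911). With ICT alone 4 rose, beside 14.1% of all genes, and 2 fell, beside 7.15%, and with tretinoin alone 1 rose, beside 11.5%, and 1 fell, beside 8.95%.

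Of 9 tested genes for procollagen cleavage and crosslinking, 4 rose with tretinoin+ICT, beside 25.7% of all genes, 1 with ICT, beside 14.1%, and 3 with tretinoin, beside 11.5%. None of the 9 fell in these 3 comparisons. Loxl3, a lysyl oxidase-like crosslinking enzyme, had means of 129 CPM with PBS, 226 with tretinoin (adjusted p = 0.000106), 219 with ICT (adjusted p = 8.54e-05) and 350 with tretinoin+ICT (adjusted p = 3.05e-07). Adamts14, which removes the amino propeptide of procollagen, rose from 40.96 to 69.01 CPM with tretinoin (0.75 ± 0.07, adjusted p = 3.41e-07). Tll1, a procollagen C-proteinase, rose from 1.47 to 2.48 CPM (adjusted p = 0.00263) and Pcolce2, an enhancer of that cleavage, from 6.37 to 10.9 CPM (adjusted p = 0.00296) with tretinoin+ICT.

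Of 7 tested receptor and uptake genes, 1 rose and 3 fell with tretinoin+ICT, beside 25.7% and 24.5% of all genes. With ICT 1 rose and 1 fell, beside 14.1% and 7.15%, and with tretinoin 1 rose and 0 fell, beside 11.5% and 8.95%. Lair1, an inhibitory collagen receptor of leukocytes, had means of 41.1 CPM with PBS, 77.1 with tretinoin (adjusted p = 0.0278), 91.8 with ICT (adjusted p = 0.00751) and 126 with tretinoin+ICT (adjusted p = 2.89e-05). Its relation to the leukocyte markers given above was not tested. Mrc2, which takes up collagen, fell from 283 to 225 CPM with tretinoin+ICT (adjusted p = 0.00246), as did the collagen receptor Ddr2, from 448 to 351 CPM (adjusted p = 0.00324).

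Of 14 other matrix genes tested, 5 fell and 0 rose with ICT, beside 7.15% and 14.1% of all genes. With tretinoin+ICT 5 also fell and 0 rose, beside 24.5% and 25.7%, and 0 passed with tretinoin alone. The 5 were Sparc, Eln, Fmod, Bgn and Lamc1 with ICT and Sparc, Thbs1, Vcan, Lamb1 and Lamc1 with tretinoin+ICT, and the other 9 did not pass in each case. Sparc, a collagen-binding matrix protein, went from a mean of 2015 CPM to 1582 with ICT (adjusted p = 0.0147) and 1663 with tretinoin+ICT (adjusted p = 0.00382). Thbs1, thrombospondin 1, fell from 442 to 282 CPM with tretinoin+ICT (adjusted p = 0.00172) and the laminin chain Lamc1 from 506 to 393 CPM (adjusted p = 0.00319). Of 6 fibroblast markers tested, 0 passed with ICT, beside 14.1% of all genes higher and 7.15% lower. Thy1 rose and Dpt fell with tretinoin+ICT, beside 25.7% and 24.5%, and Fap rose with tretinoin, beside 11.5%. Of 7 pericyte and smooth muscle markers tested with ICT, 3 fell, beside 7.15% of all genes, and 0 rose, beside 14.1%. Those that fell were Pdgfrb (-0.33 ± 0.08, adjusted p = 0.00688, 10 of 10 ICT tumours below the PBS median), Rgs5 (-0.24, adjusted p = 0.0343) and Abcc9 (-0.33, adjusted p = 0.0352). With tretinoin+ICT 2 of 8 fell, Cspg4 and Rgs5, beside 24.5% of all genes, and Tagln rose, beside 25.7%. With tretinoin alone 1 of 8 fell, Cspg4 (-0.99 ± 0.25, adjusted p = 0.0106), beside 8.95%, and 0 rose, beside 11.5%. Their part in the collagen differences was not tested.

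The sequence upstream of the start is shown for 3 genes that moved in different directions, Col6a5, Col20a1 and Col11a1. Each stretch is the 250 bases before the RefSeq start on GRCm38.p6, written 5′ to 3′ on the strand of the gene: Col6a5 at chr9:105960644-105960893 (minus), Col20a1 at chr2:180986285-180986534 (plus) and Col11a1 at chr3:114030290-114030539 (plus). Capitals mark matches on either strand to 4 motifs. GGGCGG is the GC box, bound by SP factors. CCAAT is the box of that name, bound by the NF-Y complex. AGGTCA is the core of the elements that retinoic acid receptors and other nuclear receptors bind. The gamma-activated site TTCNNNGAA is bound by STAT factors. No 2 matches in these 3 stretches overlap.
Col6a5: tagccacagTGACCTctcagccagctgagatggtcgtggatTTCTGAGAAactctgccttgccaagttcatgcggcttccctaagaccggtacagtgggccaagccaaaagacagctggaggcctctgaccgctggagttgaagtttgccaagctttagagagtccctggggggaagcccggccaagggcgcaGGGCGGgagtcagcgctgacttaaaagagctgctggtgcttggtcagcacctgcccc
Col20a1: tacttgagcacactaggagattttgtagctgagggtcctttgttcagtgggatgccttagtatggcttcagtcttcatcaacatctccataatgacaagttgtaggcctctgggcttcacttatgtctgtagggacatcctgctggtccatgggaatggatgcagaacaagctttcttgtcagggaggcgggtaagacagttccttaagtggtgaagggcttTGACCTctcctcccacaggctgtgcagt
Col11a1: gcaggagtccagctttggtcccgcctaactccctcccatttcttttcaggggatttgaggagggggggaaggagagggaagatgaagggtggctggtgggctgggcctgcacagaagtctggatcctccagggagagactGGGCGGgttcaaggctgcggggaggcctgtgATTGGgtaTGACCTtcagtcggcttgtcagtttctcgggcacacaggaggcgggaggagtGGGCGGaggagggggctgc

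Col6a5 held AGGTCA at 241 bases before the start, TTCNNNGAA at 209 and GGGCGG at 57. Col20a1 held only AGGTCA, at 28 bases before the start. Col11a1 held GGGCGG at 110 and 19, CCAAT at 79 and AGGTCA at 71 bases before the start. The same stretches of Col1a2 and Col3a1, which are not shown, held no AGGTCA. Whether AGGTCA bears on the changes was not tested. Over the 38 windows of 300 bases (250 before and 50 after the start) that matched 35 of the 44 genes, AGGTCA was in 21.1%, beside 16.3% of all 32851 windows. The TTCNNNGAA motif was in 5.26% beside 8.30%, CCAAT in 34.2% beside 37.4%, and GGGCGG in 60.5% beside 35.7%. TATAAA on the gene's strand was in 13.2% beside 8.32%. A match is a description of the letters and not a bound site.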

How the data were processed

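RNA of 39 whole tumours was sequenced as single-end reads, and per the labels bcl2fastq 2.20.0.422 and HISAT2 2.0.4 were used. The authors deposited raw gene counts from SummarizeOverlaps, with the build named mm11. The strand and multi-mapping settings are not given in the sources used here. Counts were tested as deposited with edgeR 4.0.16 (TMM, filterByExpr, robust quasi-likelihood) in R 4.3.3, on the groups compared only, with Benjamini-Hochberg adjustment over all genes tested. DESeq2 1.42.0, a fit over all 39 tumours and sums of counts over name series were among the alternatives. Log2 CPM used a prior count of 2 and TMM over all 39 tumours. The rule for named genes took 15 major chains, every other collagen gene that passed in a comparison, and the 3 genes of a list with the smallest adjusted p in a comparison. The members, gene lists and named genes were chosen with earlier results of these data known. Gene models came from GENCODE M21 (GRCm38), which matched 99.54% of the table's gene identifiers without version and all 44 collagen genes, 10 of them under another version. The labels number no replicates, and nothing in them says that tumours of a group came from separate experiments, so p-values measure the spread between these tumours. The fits were tested on simulated counts.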

Additional observations from a re-analysis of the deposited data

Results flagged for a closer look

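The spread within groups was examined for 31 collagen genes in 4 treatment groups, 124 groups in all, for a tumour far from the others by Dixon's 95% limit. Chance alone would mark about 1 in 20 groups, and 3 were marked. Col20a1 was highest in tumour 33 (tretinoin) at 8.37 CPM, with the next tumour at 4.93 CPM. Col5a2 was lowest in tumour 14 (PBS) at 1457 CPM, with the next at 1684 CPM. Col8a1 was highest in tumour 55 (PBS) at 389 CPM, with the next at 325 CPM.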

How the results depend on the processing

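A minimum absolute log2 fold change of 1 left 1 gene, Col6a5, higher with tretinoin, ICT and tretinoin+ICT against PBS, and 0 lower in these comparisons and against tretinoin. A fit over all 39 tumours gave 3 genes higher with tretinoin (Col9a3, Col11a2 and Col20a1, with Col6a5, Col8a2, Col17a1 and Col24a1 lost) and 1, Col24a1, higher with tretinoin+ICT than with ICT. That fit also called Col4a1, Col4a4, Col5a2, Col11a1 and Col18a1 lower with tretinoin+ICT than with tretinoin. With no low-count filter, 6 genes were lower with tretinoin+ICT than with tretinoin. Leaving out the least correlated tumour of each group, chosen after seeing the data, gave 16 there and 1 higher with ICT, and turned the sign of Col23a1 (0.0060) and Col5a2 (0.019) with tretinoin, Col12a1 (-0.018) with ICT and Col20a1 (0.066) against tretinoin, none of which passed in either setting. With DESeq2, 5 genes were lower in responders, 1 passed for the interaction, Col3a1, Col7a1 and Col15a1 were also lower with ICT, Col4a4, Col11a1 and Col18a1 were also lower against tretinoin, and Col13a1 (-1.41, adjusted p = 0.00775), which edgeR's filter removed, was lower with tretinoin+ICT. With counts summed over each name series, also chosen after seeing the data, 3 genes were higher with tretinoin, 1 with ICT, 3 with tretinoin+ICT and 1 (Col24a1) against ICT, while the lower calls stayed within 1.5 times in number, and the sign turned for Col12a1 (-0.0076) with ICT and Col20a1 (0.0091) against tretinoin, neither passing. Leaving out each tumour of the response comparison gave 0 to 6 lower (6 without tumour 43) and a sign that depended on the tumour left out for Col17a1 (-0.0829 to 0.16), Col1a1 (-0.235 to 0.0134), Col27a1 (-0.18 to 0.10), Col6a1 (-0.19 to 0.21), Col6a2 (-0.20 to 0.23) and Col8a2 (-0.41 to 0.18), none passing. DESeq2 size factors changed no call. The cause of these changes was not tested. The name series as a replicate block gave 0 higher and 0 lower in responders and changed no call. No paired analysis was possible because the labels number no replicates across treatments. Depth limits Col8a2 and Col17a1 most among the genes that passed with tretinoin, at PBS medians of 1.33 and 1.35 CPM.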
